A study of Drosophila melanogaster with 4 samples.

Results

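The genes described here are 7 classic antibacterial peptide genes of Drosophila melanogaster: the attacins AttA, AttC and AttD, the diptericins DptA and DptB, the cecropin CecA2 and the defensin Def. They were chosen by gene identity, with earlier results of these data known. Each was taken from the authors' deposited table by its CG number, so all 7 are among its 244 rows by that choice. The table lists genes that the authors had already selected for a change, so the presence of the 7 in it is not a separate finding.

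Peptides of these families are made in quantity when the fly detects bacteria. In the immune deficiency (IMD) pathway, peptidoglycan recognition proteins such as PGRP-LE sense the cell wall of bacteria, and a signalling cascade then cleaves Relish, an NF-kappa B factor that enters the nucleus and switches on antibacterial peptide genes. The fat body is the best known source of these peptides in systemic infection, while epithelia such as the trachea, the air-filled tubes that serve as the airway of the larva, make them locally.

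The study was designed to switch the pathway on without infection. Larvae from the cross NP2610::UAS-PGRP-LE carried both the GAL4 driver NP2610, which the design text calls specific for the tracheal system, and a UAS transgene for PGRP-LE. Control larvae were of the driver strain NP2610 without the transgene. Both were larvae of the third instar, about 10 days old and raised at 22 °C, and the RNA of 20 pairs of tracheae was pooled and amplified before labelling. Each of the 4 arrays held cross RNA in one channel and driver RNA in the other, as 2 biological replicates with 2 arrays each. The cross also brings in the genetic background of a second strain, so its part and that of PGRP-LE cannot be told apart.

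The authors' deposited table gives 1 mean log2 ratio per gene over all valid array spots, with a standard deviation (SD) over those spots and their number. It names the PGRP-LE cross (writing the driver as NP2160) but not which channel is the numerator. A positive ratio is read here as more RNA in the PGRP-LE tracheae, an assumption made because the cross is channel 1 on every array. The order of the channels does not itself give the numerator. PGRP-LE has no row in the table, so it could not serve as a check of that direction. Directions, signed ranks and shares of higher rows below all rest on this reading. A second file holds a value for each of 32448 numbered spots on each array, but no source used here pairs spot numbers with genes. The 7 genes could therefore not be traced on single arrays, and no test per gene was possible. The SD mixes spread between spots, arrays and replicates, and spots on 1 array are not independent.

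All 7 genes were higher in the PGRP-LE tracheae in the authors' deposited table, where 76.6% of all rows were higher. In the authors' deposited table their mean log2 ratio lay between 0.86 and 2.02, or between 1.82-fold and 4.06-fold, with a median of 1.20 against 0.80 for the other 237 rows. On the same scale 5 of the 7 reached a mean of at least 1 in the authors' deposited table, as did 32.4% of all rows. Lower rows cannot reach that level. Among the 180 other higher rows the share was 41.1% and the median 0.91, closer to the members than the values over all rows. With RNA from whole tracheae, fewer or more cells of a type and a different amount of RNA per cell cannot be told apart.

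**Figure D1:**
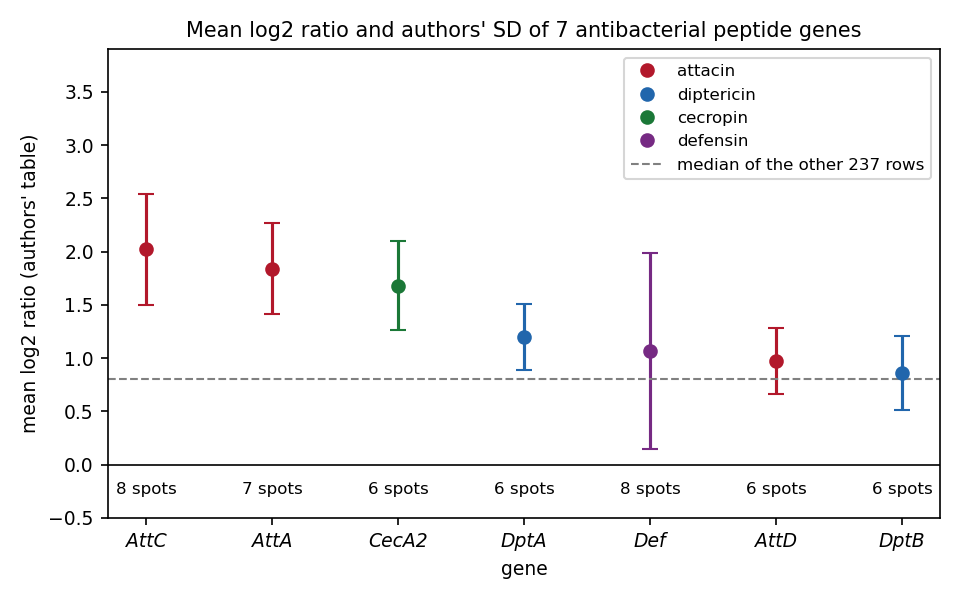
Mean log2 ratio (vertical axis, PGRP-LE cross over driver strain as read here) of the 7 genes, taken from the authors' deposited table and coloured by family, with bars of 1 authors' SD and the number of valid spots below each gene. The dashed line is the median of the other 237 rows, 0.80. The bar of Def is the longest and reaches down to 0.15; in all 244 rows of the table the mean is larger in size than its SD, so a bar of 1 SD crosses 0 in no row.

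Attacins are glycine-rich peptides that act on Gram-negative bacteria. The authors' deposited table put AttC highest of the 7 genes, with a mean log2 ratio of 2.02, an SD of 0.52 and 8 valid spots. Going 1 SD down and up from that mean gives 2.83-fold and 5.82-fold in the authors' deposited table. Among all 244 rows of the authors' deposited table only CG11983, at 2.05 with an SD of 0.94, stood above AttC. In the authors' deposited table AttA followed at 1.84 (SD 0.43, 7 spots), a 3.58-fold difference and rank 7 of 244.

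The third attacin did not share that level. The authors' deposited table gave AttD a mean of 0.97 (SD 0.31, 6 spots), a 1.96-fold difference and rank 82. In the authors' deposited table AttD lay 0.87 below AttA and 1.05 below AttC, and its interval of mean ± 1 SD, from 0.66 to 1.28, overlapped neither that of AttA, from 1.41 to 2.27, nor that of AttC, which lay higher. AttA and AttC differed by 0.18 in the authors' deposited table, which is less than the SD of each. AttA and AttC lie on chromosome arm 2R and AttD on arm 3R, and AttD had neither a gene name nor a Gene Ontology term in the authors' deposited table.

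Cecropins are short helical peptides that disrupt bacterial membranes. For CecA2 the authors' deposited table gave a mean log2 ratio of 1.68 (SD 0.42, 6 spots), which is 3.20-fold, or 2.39-fold to 4.29-fold at 1 SD down and up. CecA2 shared rank 10 of 244 with CG11413, for which the authors' deposited table gave a wider SD of 1.32 from 8 spots.

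Diptericins, glycine-rich peptides against Gram-negative bacteria, stood lower. DptA was put at 1.20 by the authors' deposited table (SD 0.31, 6 spots), a 2.30-fold difference and rank 51. DptB was the lowest of the 7 genes, listed by the authors' deposited table at 0.86 (SD 0.35, 6 spots), a 1.82-fold difference and rank 107. Its place was close to the middle of the list, with 54.9% of all rows of the authors' deposited table below it. Next to DptB in value the authors' deposited table held CG14567, CG14695 and CG2121, all at 0.86, and CG13377, CHOp24 and Mgat3, all at 0.85. DptA exceeded DptB by 0.34, just under the larger of their SDs of 0.35 in the authors' deposited table.

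Def encodes a cysteine-rich defensin that acts mainly on Gram-positive bacteria. The authors' deposited table gave Def a mean log2 ratio of 1.07 (SD 0.92, 8 spots), which is 2.10-fold and rank 65. At 1 SD down and up the fold in the authors' deposited table was 1.11 and 3.97. Its coefficient of variation, the SD divided by the mean, was 0.87 in the authors' deposited table, a value that 27 of 244 rows reached or exceeded. Def had as many valid spots as AttC, whose SD was 0.52, while the 4 members with 6 spots had SDs from 0.31 to 0.42. Whether the spread goes with the number of spots was not tested.

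**Figure D2:**
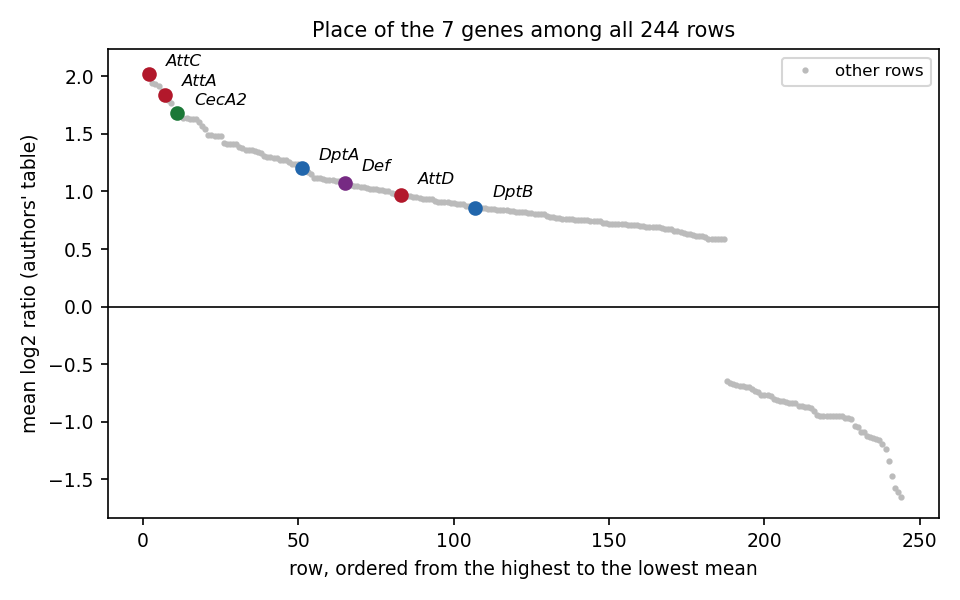
Mean log2 ratio (vertical axis) of all 244 rows of the authors' deposited table in order from highest to lowest (horizontal axis), with the 7 genes coloured by family as in the plot of means and SDs. AttC, AttA and CecA2 sit at ranks 2, 7 and 10, and the other members between ranks 51 and 107. The table lists no row with a mean between -0.65 and 0.59.

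By value the 7 genes fell into 3 at the top, AttC, AttA and CecA2, and 4 below, DptA, Def, AttD and DptB, a grouping read from the means after they were seen. Between CecA2 at 1.68 and DptA at 1.20 the gap was 0.48 in the authors' deposited table, the widest between members next to each other in value. Because the groups were cut there, smaller differences within than between them follow in part from the cut. The SD of a gene is also not the spread of a difference within arrays, which could not be computed. The 3 pairs among the upper genes and the 6 pairs among the lower ones all differed by no more than the larger SD of the pair in the authors' deposited table. Of the 12 pairs that joined an upper with a lower gene, 10 differed by more than the larger SD in the authors' deposited table. The exceptions were Def with AttA, a difference of 0.77, and Def with CecA2, a difference of 0.61, against an SD of 0.92 for Def in the authors' deposited table. Neither group was 1 family: attacins stood in both.

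By a stricter measure, 5 of the 21 pairs had intervals of mean ± 1 SD that did not overlap in the authors' deposited table. They were AttC with AttD and DptB, AttA with AttD and DptB, and CecA2 with DptB. The largest difference, between AttC and DptB, was 1.16 on the log2 scale in the authors' deposited table, so that the ratio of AttC was 2.23 times that of DptB.

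**Figure D3:**
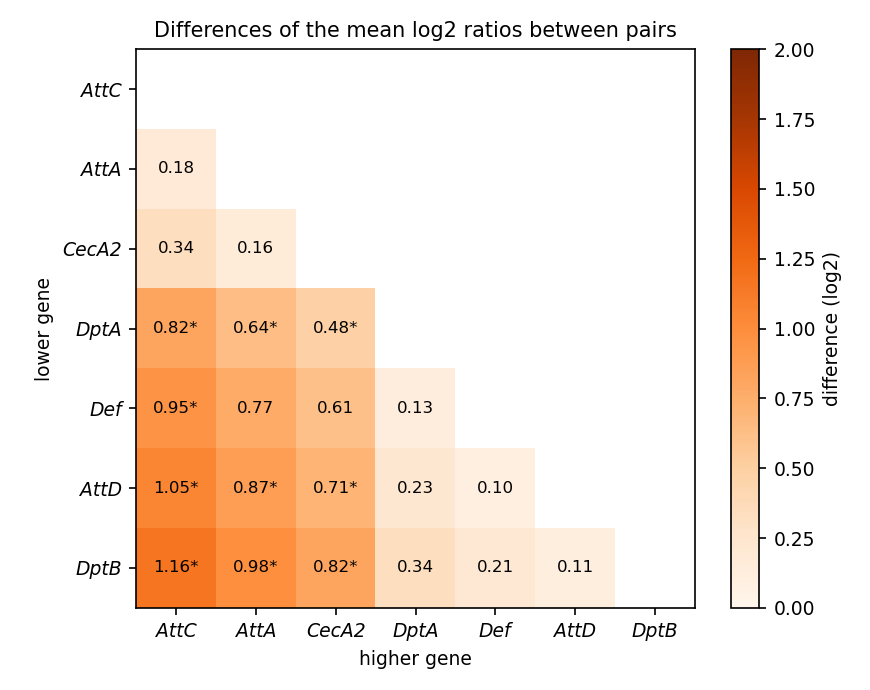
Difference between the mean log2 ratios of each pair of the 7 genes, from the authors' deposited table, with the higher gene on the horizontal axis and the lower on the vertical axis. An asterisk marks the 10 pairs whose difference is larger than the larger SD of the pair. Each joins AttC, AttA or CecA2 with DptA, Def, AttD or DptB.

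The means of the 7 genes mostly had a small spread. Of the 7, the authors' deposited table gave 6 a coefficient of variation under 0.5, as did 32.8% of all rows. These 6 ranged from 0.23 in AttA to 0.41 in DptB, and Def was the exception. AttA had the eighth smallest coefficient of variation of all 244 rows in the authors' deposited table, after 7 rows of genes outside the group. The authors' SD itself had a median of 0.42 over the 7 genes and of 0.52 over all 237 other rows of the authors' deposited table, and of 0.65 over the 103 of these with a mean of at least 0.86, the level of DptB. Among the rows next to the upper genes the spread was wide in some and as narrow as in the members in others. Cpr62Ba, a cuticle protein gene just below AttC at 1.94, had an authors' SD of 1.3 in the authors' deposited table. CG30378, just below AttA at 1.79, had one of 1.73 in the authors' deposited table, while CG4757, just above AttA at 1.87, had one of 0.41.

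**Figure D4:**
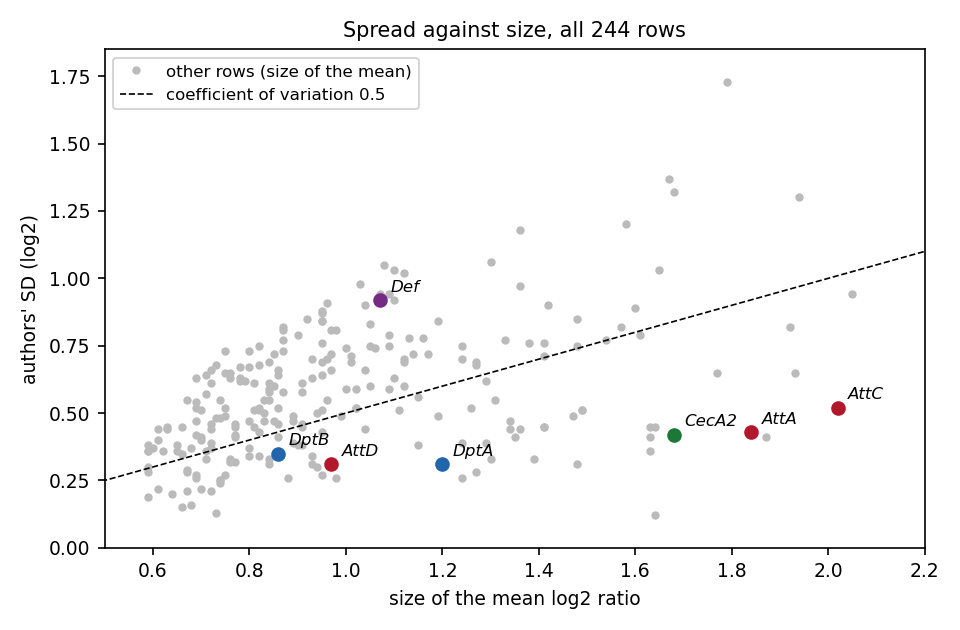
Authors' SD (vertical axis, log2) against the size of the mean log2 ratio (horizontal axis) for all 244 rows of the authors' deposited table, with the 7 genes coloured by family. The dashed line marks a coefficient of variation of 0.5. Of the 7 genes, 6 lie below it and Def lies above it.

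The number of valid spots was 6 for CecA2, DptA, AttD and DptB, 7 for AttA and 8 for AttC and Def in the authors' deposited table. Of all 244 rows, 238 had between 6 and 8 valid spots in the authors' deposited table. On the arrays, spots with consecutive numbers correlated at 0.31 to 0.55 when the pair began with an odd number and at 0.18 to 0.30 when it began with an even one. If each member had 2 neighbouring spots on each of the 4 arrays, it could have at most 8 valid spots, and 6 would span at least 3 arrays. Rows with more than 8 valid spots cannot have that layout. No source used here gives the layout of the arrays.

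Across arrays the deposited spot values of the second file were uneven. Their medians were 0.98 and -0.39 on the arrays of the first biological replicate and -0.07 and -0.41 on those of the second. Over all spots, the correlation between 2 arrays ran from -0.09 to 0.11, with no filter on dim spots. The arrays of the first replicate correlated at -0.09 and those of the second at 0.01. Between replicates, the arrays labelled biological correlated at 0.06 and those labelled technical at 0.11. The remaining pairs stood at -0.08 and -0.07. For the cross the label fields give Cy5 on 1 array and Cy3 on 2, while on the remaining array they name Cy5 for both channels, so the scale, the centring and the direction of these values stay unknown. How far they enter the pooled means of the 7 genes could not be followed without gene names.

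Annotation in the authors' deposited table largely restates the antibacterial role by which the 7 genes were chosen, and no term covered all 7. Gene Ontology terms were given for 5 of them and for 152 of all 244 rows of the authors' deposited table. AttA, AttC, CecA2, DptA and Def each carried the antibacterial humoral response and the defense response to bacteria, and no other row of the authors' deposited table carried either term. The term for defense against Gram-negative bacteria was given to AttA, CecA2 and DptA, and outside the group to Rel, in the authors' deposited table. That for Gram-positive bacteria was given to CecA2 and Def, and outside the group to PGRP-SD, in the authors' deposited table. CecA2 alone carried a term for defense against fungi. The terms are the annotation of the array's time, and AttD and DptB had none, so the split by target bacterium covers part of the group.

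In the gene order of the RefSeq reference, 5 of the 7 genes lie on arm 2R and 2 on arm 3R. DptA and DptB are next to each other, and both were higher in the authors' deposited table. The second protein-coding gene beyond DptB, sano, was listed as lower by the authors' deposited table, at -0.94 (SD 0.30, 6 spots). CG43109, between DptB and sano, has no row, and whether neighbouring genes share a direction was not tested. AttA lies between Dro, which encodes drosocin, and AttB, a close copy of AttA. CecA2 lies between CecA1 and CecB in a cluster that also holds CecC and Anp. Not 1 of the neighbours Dro, AttB, CecA1, CecB, CecC and Anp has a row in the authors' deposited table, which gives no value for a gene it does not list. RNA of close copies was not resolved here, so the values of AttA and CecA2 are uncertain in that respect.

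Most other antimicrobial peptide genes and IMD pathway genes looked for were outside the table. Of 16 further antimicrobial peptide genes, which include genes known mainly as targets of the Toll pathway, such as Drs, 4 were listed. All 4 were higher, as were 76.6% of all rows: Drsl1 at 1.54, Drsl4 and Listericin at 1.48 and BomT3 at 0.74 in the authors' deposited table. The other 12, Drs and Mtk among them, have no row. These 4 had coefficients of variation from 0.50 in Drsl1 to 0.74 in BomT3 in the authors' deposited table, each above that of the 6 members other than Def. Of 25 genes for recognition and signalling in the IMD pathway, 2 were listed in the authors' deposited table. It gave PGRP-SD, a secreted recognition protein, 1.17 (authors' SD 0.72), close to DptA at 1.20. In the authors' deposited table Rel, which encodes Relish, stood at 0.96 (SD 0.70, 13 spots), next to AttD at 0.97.

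Few markers of other tissues were listed. Of 29 marker genes of fat body, blood cells, gut, muscle and salivary gland, 3 were in the authors' deposited table, and all 3 were lower, as were 57 of its 244 rows (23.4%); read the other way, these 3 would be higher and the peptide genes lower. They were the fat body gene Lsp2 at -0.86, the muscle gene Mf at -1.09 and the gut gene Jon99Fi at -1.58 in the authors' deposited table, the side opposite to the 7 peptide genes. No blood cell gene of the lists had a row. NimB2 and atilla, genes linked to blood cells but outside the lists, were at 0.80 and 0.74 in the authors' deposited table. Both were higher, as were 76.6% of all rows, and NimB2 carried the term extracellular. Of 10 tracheal marker genes, of which 9 matched a symbol in the reference, 0 were listed, so the labelled tissue could not be checked. The part of such tissues in the ratios of the 7 genes was not tested.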

How the data were processed

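Two-colour arrays compared tracheal RNA of the PGRP-LE cross and of the driver strain. For each gene the deposited table holds, per the file headers, a mean log2 ratio, its SD on the log2 scale, the number of valid spots and a coefficient of variation, a deposited ratio that equals the SD over the size of the mean to within 0.014. Per the series' design text these genes came from SAM and GeneTraffic output, while no source used here gives the normalization, spot filters or thresholds. The second deposited file holds a signed score per spot and array, whose scale is not stated.

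Members were found by CG number through the RefSeq gene table (Release 6), used for names and gene order alone. Fold is 2 to the power of the mean log2 ratio. The planned fit across genes of the per-array values, its calls and the search for genes of like pattern were not run, since spot numbers are not paired with genes. Comparisons of rows are descriptions, set against the authors' SD, with no test. All 7 members, the rows next to them in value, and listed genes present in the table are named. The genes sano, NimB2 and atilla were named after their values were seen. Members and lists were chosen with earlier results of these data known. Scripts were tested on simulated data and used Python 3.11.15, numpy 2.4.6, pandas 2.3.3 and matplotlib 3.10.9.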

Additional observations from a re-analysis of the deposited data

How the results depend on the processing

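Reading the ratio the other way turns every member: 0 of 7 would be higher, the members' median minus that of the other rows would be -0.40, and the means would be -2.02 for AttC, -1.84 for AttA, -1.68 for CecA2, -1.20 for DptA, -1.07 for Def, -0.97 for AttD and -0.86 for DptB. In that reading 23.4% of all rows would be higher, 0 of 7 members and 6.56% of all rows would have a mean of at least 1, and the members would rank from 135 (DptB, with 43.4% of rows below it) to 243 (AttC) of 244. Requiring at least 8 valid spots left 2 members, AttC and Def, both higher. A log2 size of at least 1 left 5, and a coefficient of variation under 0.5 left 6. The members' median lay above that of the other rows by 0.40 as reported, and by 0.29 (against higher rows alone) to 0.79 (at least 8 valid spots) under the other settings, of which the comparisons with higher rows, with rows of 6 to 8 spots and without Def (0.64) were added after seeing the data. Alternatives that need values per array for named genes were not run: averaging, centring, turning or leaving out single arrays or replicates, missing values and several spots per gene. Precision is limited by 2 biological replicates with 2 arrays each. The 6 to 8 spots per member are not independent replicates, and no source used here gives signal over background.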
